A study of Homo sapiens with 6 samples.

Results

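The pyruvate dehydrogenase genes were followed here in RNA-Seq of HT29 cells with and without knockdown of ALDOA, which encodes the glycolytic enzyme aldolase A. The set was given by symbol and holds 10 genes of the 28278 in the count table, namely the subunit genes PDHA1, PDHB and DLAT, the kinase genes PDK1, PDK2, PDK3 and PDK4, the phosphatase genes PDP1 and PDP2, and PC, the gene of pyruvate carboxylase. All 10 were among the 15307 genes that passed the filter on low counts. HT29 is an established human colorectal adenocarcinoma line of epithelial shape. The siALDOA group (3 libraries, labelled as biological replicates) received a siRNA against ALDOA, and the siControl group (3 libraries) received a scrambled siRNA. Both groups were HT29 cells transfected with siRNA, and total RNA was taken 48 h later. The labels call the siALDOA cells ALDOA KD. A siRNA knockdown leaves part of the transcript in place, and only 1 cell line was sequenced.

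The pyruvate dehydrogenase complex sits in the mitochondrial matrix and turns pyruvate, the end product of glycolysis, into acetyl-CoA for the citric acid cycle. PDH kinases phosphorylate the E1 alpha subunit and switch the complex off, and PDH phosphatases remove the phosphate and switch it on again. Pyruvate carboxylase offers the other mitochondrial route, from pyruvate to oxaloacetate, and many tumour cells hold the complex partly phosphorylated while they export lactate.

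Of the 10 genes, PDHA1 and PDK2 were down-regulated with siALDOA at an adjusted p < 0.05, and no gene of the set was up-regulated. PDHA1, the gene of the E1 alpha subunit that the kinases phosphorylate, fell by 20.4%. PDK2, the kinase gene with the highest level per length in these cells, fell by 23.0%. Over all tested genes 5.29% were called lower and 4.36% higher, so 2 of 10 lower genes is a small number to read against that background. The other 8 genes had log2 fold changes between -0.21 and 0.15, and none of them passed the test.

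The promoters of PDHA1 and PDK2, the genes that passed the test, are shown as 300-base windows from RefSeq (GRCh38.p14), from 250 bases before to 50 bases after the start, on the strand of the gene. The PDHA1 window is chrX:19343677-19343976 on the plus strand and the PDK2 window is chr17:50095101-50095400 on the plus strand. Capitals mark CCAAT boxes (CCAAT, or ATTGG on the other strand), GC boxes (GGGCGG, or CCGCCC) and the E-box CACGTG.
PDHA1 promoter: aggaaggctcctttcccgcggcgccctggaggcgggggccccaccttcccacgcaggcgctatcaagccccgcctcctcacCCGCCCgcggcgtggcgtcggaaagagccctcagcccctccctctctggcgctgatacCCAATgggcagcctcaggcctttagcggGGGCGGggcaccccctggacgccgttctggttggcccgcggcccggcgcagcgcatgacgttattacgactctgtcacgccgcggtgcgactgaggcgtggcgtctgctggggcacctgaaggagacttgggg
PDK2 promoter: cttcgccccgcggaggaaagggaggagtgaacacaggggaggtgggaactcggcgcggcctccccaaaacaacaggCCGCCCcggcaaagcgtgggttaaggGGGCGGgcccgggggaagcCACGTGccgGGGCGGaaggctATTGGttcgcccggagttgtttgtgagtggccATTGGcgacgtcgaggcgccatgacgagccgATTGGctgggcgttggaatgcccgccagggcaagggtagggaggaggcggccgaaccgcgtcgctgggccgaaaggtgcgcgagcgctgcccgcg
The PDHA1 window held 1 CCAAT box, 2 GC boxes and no CACGTG. The PDK2 window held 3 CCAAT boxes, 3 GC boxes and 1 CACGTG. Among all 35114 promoter windows of this length, 34.6% held CCAAT, 45% held GGGCGG and 7.26% held CACGTG, each on either strand. The GC content was 71.0% in PDHA1 and 69.7% in PDK2. A GC box and a CCAAT box were also present in the windows of PDHB, PDK3, PDK4, PDP2 and PC, none of which passed the test, so the letters searched do not set PDHA1 and PDK2 apart. The window of PDK1 held 7 GC boxes and no CCAAT box, that of DLAT held neither, and that of PDP1 was not searched.

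The 3′ UTRs of the genes were searched for GAGGAGA, a 7-base word that an earlier analysis of these same counts had picked, so its presence supports nothing here. Among the 10 genes it occurred in PDHA1, PDK2 and PDK1 only, and each match is shown with its flanks (hg38, plus strand, word in capitals).
PDHA1, chrX:19359654-19359674: gggGAGGAGAaggagaggtta
PDHA1, chrX:19359947-19359975: cacctttttggGAGGAGAccattatggcg
PDHA1, chrX:19360810-19360838: cagagtctgcaGAGGAGAccacccctggg
PDK2, chr17:50111032-50111060: cccacagtaaaGAGGAGActgaatgagac
PDK1, chr2:172596978-172597006: tttatagactcGAGGAGAcagaaactgaa
PDK1, chr2:172604021-172604049: tagaccaatttGAGGAGAatttaacaata
Counted from the first base after the stop codon of the MANE Select transcript, the word began at bases 4, 305 and 1168 of the PDHA1 3′ UTR (2065 bases), at base 946 in PDK2 (2055 bases) and at bases 1020 and 8063 in PDK1 (12700 bases). Of 12670 tested genes with a 3′ UTR, 16.2% carried the word and 0.702% carried it 3 times or more, as PDHA1 did. The 3′ UTRs of PDHB, DLAT, PDK3, PDK4, PDP1, PDP2 and PC did not hold it. PDK1 carries it and was not called.

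The libraries held between 27277538 and 28690395 counts with siALDOA and between 31899091 and 33237914 with siControl, so that 1 CPM (a count scaled to a common library size by TMM) stood for 27.8 to 33.0 counts. The knockdown was visible in the target: ALDOA (ENSG00000149925) was at 289 ± 13.7 CPM with siALDOA and 632 ± 38.2 CPM with siControl (SD, n = 3 each), a log2 fold change of -1.13 (SE 0.060, adjusted p = 6.95e-11). Counts of ribosomal RNA genes took 7.71% to 13.1% of the siALDOA libraries and 8.15% to 17.4% of the siControl libraries, and with those genes left out PDHA1 and PDK2 differed by -0.33 and -0.38 on the log2 scale. Of 11 colon epithelial markers 10 were tested, with KRT8 at 5093 CPM with siALDOA and 5595 CPM with siControl, 8 log2 fold changes negative and 2 positive, and a median of -0.12. The groups of 5 of these markers lay lower and of 1 higher with siALDOA without overlap, states that 14.6% and 13.1% of all tested genes reached. LGALS4 is listed at 0 in every library, and since the annotation behind the counts is not given, a gene that was not counted cannot be told apart from one without transcript. KRT19 was called higher (0.38, SE 0.065, adjusted p = 0.000577) and KRT18 lower (-0.28, SE 0.072, adjusted p = 0.0152), and KRT18 missed the threshold with library totals only and without siALDOA replicate 2 or 3 or siControl replicate 2 or 3. The 11 markers of fibroblasts, endothelium and blood cells summed to 3.28 to 4.58 CPM by library totals with siALDOA and 2.94 to 4.24 with siControl, 3 of them were at 0 throughout, and the 2 that were tested were not called. In a bulk sample a lower value can mean fewer cells that express a gene or less RNA per cell, and these cannot be told apart.

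Among the subunit genes, PDHA1 was lower with siALDOA, and PDHB and DLAT did not pass the test. PDHA1 (ENSG00000131828, chromosome X, 19343893 to 19361718, plus strand) encodes the E1 alpha subunit, which carries the serines that the PDH kinases modify. Its level was 96.2, 106 and 98.7 CPM in siControl replicates 1, 2 and 3, and 83.1, 80.0 and 76.5 CPM in siALDOA replicates 1, 2 and 3. The highest siALDOA library therefore lay below the lowest siControl library. The means were 79.8 ± 3.27 CPM with siALDOA and 100.3 ± 5.14 CPM with siControl (SD, n = 3 each), a log2 fold change of -0.33 (SE 0.063, 95% interval -0.46 to -0.20, adjusted p = 0.00153 by edgeR's quasi-likelihood test). These values rest on 2174 to 2403 counts per siALDOA library and 3001 to 3251 per siControl library.

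PDHB (ENSG00000168291, chromosome 3, 58427630 to 58433857, minus strand) encodes E1 beta, which pairs with E1 alpha in the same enzyme. In siControl it was at 32.7, 32.2 and 32.9 CPM, and in siALDOA at 37.3, 31.4 and 32.9 CPM. Its groups overlapped, with siALDOA replicate 1 as the highest library, and the log2 fold change was 0.05 (SE 0.080, 95% interval -0.11 to 0.22, adjusted p = 0.739). DLAT (ENSG00000150768, chromosome 11, 112025408 to 112064404, plus strand) encodes E2, the lipoate-bearing core of the complex that passes the acetyl group to coenzyme A. It was at 83.0, 83.7 and 89.0 CPM in siControl and at 78.7, 83.6 and 82.1 CPM in siALDOA, so the ranges overlapped. The log2 fold change of DLAT was -0.07 (SE 0.061, 95% interval -0.19 to 0.06, adjusted p = 0.573).

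Ratios within a library do not depend on the scaling between libraries. The ratio of PDHA1 to PDHB counts was 2.94, 3.30 and 3.00 in siControl and 2.23, 2.55 and 2.32 in siALDOA, with no overlap of the groups. PDHA1 against DLAT gave 1.16, 1.27 and 1.11 in siControl and 1.06, 0.957 and 0.932 in siALDOA. Both ratios were lower in each siALDOA library than in any siControl library, and this holds in unscaled counts. No test was made on ratios of chosen genes, so whether PDHA1 differed in its change from PDHB or DLAT was not tested.

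**Figure D1:**
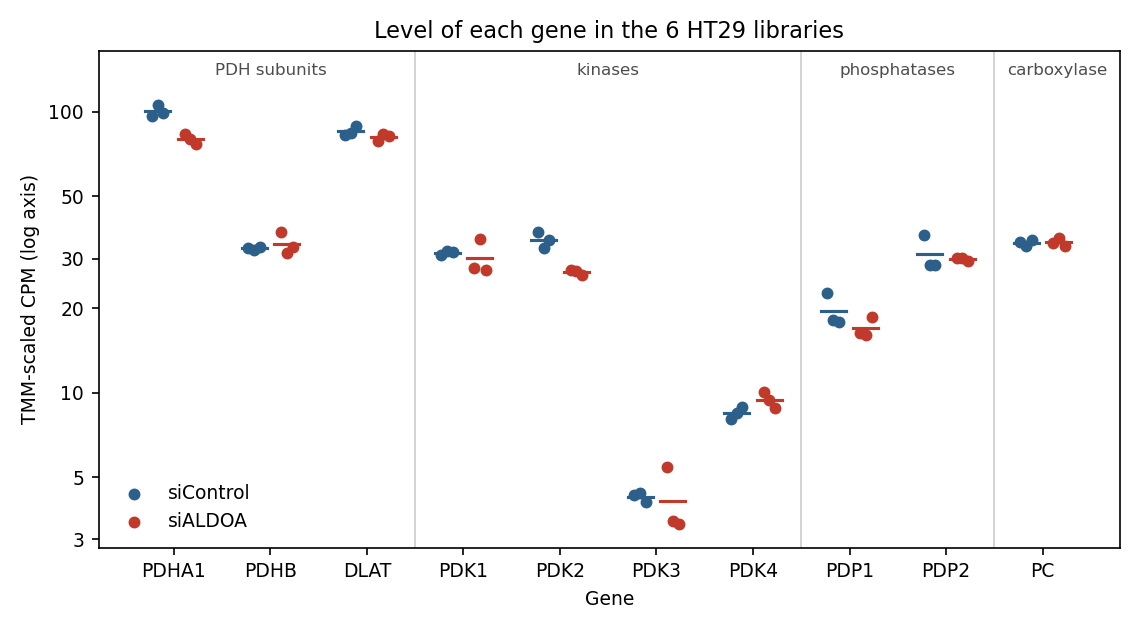
TMM-scaled CPM (log axis) of the 10 genes in each library, 3 siControl (blue) and 3 siALDOA (red), with a bar at each group mean. PDHA1 (96.2 to 106 against 76.5 to 83.1 CPM) and PDK2 (32.7 to 37.2 against 26.2 to 27.3 CPM) are the genes whose groups do not overlap.

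Among the kinase genes, PDK2 was lower with siALDOA, and PDK1, PDK3 and PDK4 did not pass the test. PDK2 (ENSG00000005882, chromosome 17, 50094737 to 50112152, plus strand) encodes a widely expressed PDH kinase that is inhibited by pyruvate. Its level was 37.2, 32.7 and 34.8 CPM in siControl replicates 1 to 3 and 27.3, 27.1 and 26.2 CPM in siALDOA replicates 1 to 3. The siALDOA libraries lay close together, all below the lowest siControl library. The means were 26.9 ± 0.592 CPM with siALDOA and 34.9 ± 2.28 CPM with siControl (SD, n = 3 each), a log2 fold change of -0.38 (SE 0.079, 95% interval -0.54 to -0.21, adjusted p = 0.00361).

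PDK1 (ENSG00000152256, chromosome 2, 172555373 to 172608669, plus strand) encodes the kinase best known as a hypoxia-induced target of HIF-1. It was at 30.95, 31.8 and 31.6 CPM in siControl and at 27.7, 35.4 and 27.4 CPM in siALDOA. The siControl values lay close together, while siALDOA replicate 2 was the highest and the other siALDOA libraries were the lowest of the 6. The log2 fold change was -0.06 (SE 0.092, 95% interval -0.25 to 0.13, adjusted p = 0.760).

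PDK4 (ENSG00000004799, chromosome 7, 95583499 to 95596516, minus strand) encodes the kinase that fasting and PPAR agonists induce in many tissues. Its 3 siControl libraries held 8.08, 8.49 and 8.89 CPM, and the siALDOA libraries held 10.1, 9.38 and 8.83 CPM. The lowest siALDOA value fell just under the highest siControl value, and the log2 fold change was 0.15 (SE 0.12, 95% interval -0.11 to 0.41, adjusted p = 0.510). PDK3 (ENSG00000067992, chromosome X, 24465244 to 24550466, plus strand) encodes the kinase isoform that is least sensitive to inhibition by pyruvate. It had the lowest level of the set, at 4.33, 4.39 and 4.07 CPM in siControl and 5.43, 3.49 and 3.41 CPM in siALDOA. With 97 to 151 counts per library its interval was the widest of the 10 genes, from -0.47 to 0.36 around a log2 fold change of -0.05 (SE 0.20, adjusted p = 0.906), so a change of the size seen in PDK2 could not be told from none for PDK3.

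PDK2 made up a smaller part of the kinase transcripts with siALDOA. Per kb of exon, PDK2 made up 62.3%, 58.4% and 59.6% of the summed kinase level in siControl and 53.2%, 51.6% and 54.6% in siALDOA. PDK4 took 16.3%, 18.3% and 18.3% in siControl and 23.6%, 21.5% and 22.1% in siALDOA. The groups did not overlap for either isoform. Shares sum to 100, so a lower PDK2 raises the others, and PDK4 itself was not called. PDK1 held 19.1% to 20.9% in siControl and 19.9% to 24.8% in siALDOA, and PDK3 held 2.18% to 2.46% and 2.08% to 3.31%, both with overlap.

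The phosphatase genes and PC did not pass the test. PDP1 (ENSG00000164951, chromosome 8, 93857807 to 93926068, plus strand) encodes the calcium-stimulated PDH phosphatase. It was at 22.7, 18.2 and 17.8 CPM in siControl and 16.2, 16.0 and 18.7 CPM in siALDOA, and siControl replicate 1 stood above the other libraries. Its log2 fold change of -0.21 (SE 0.11, 95% interval -0.43 to 0.02, adjusted p = 0.262) was the largest among the genes that were not called, and it was -0.09 (adjusted p = 0.711) without siControl replicate 1. PDP2 (ENSG00000172840, chromosome 16, 66878589 to 66895754, plus strand) encodes the other PDH phosphatase, which is linked to the response to insulin. It was at 36.5, 28.4 and 28.5 CPM in siControl and 30.2, 30.2 and 29.5 CPM in siALDOA. Again siControl replicate 1 was the highest library, the siALDOA values lay between the siControl values, and the log2 fold change was -0.05 (SE 0.093, 95% interval -0.25 to 0.14, adjusted p = 0.778).

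The ratio of summed kinase to summed phosphatase level per kb was 1.29, 1.53 and 1.61 in siControl and 1.43, 1.47 and 1.27 in siALDOA. The groups overlapped, with means of 1.47 ± 0.168 and 1.39 ± 0.107 (SD, n = 3 each). PDK2 against PDP2 in counts was 1.02, 1.15 and 1.22 in siControl and 0.906, 0.900 and 0.888 in siALDOA, without overlap, whereas PDK2 against PDP1 was 1.64, 1.80 and 1.95 in siControl and 1.68, 1.70 and 1.41 in siALDOA, with overlap. PDK2 against PDHA1 was 0.387, 0.308 and 0.353 in siControl and 0.329, 0.339 and 0.343 in siALDOA. That last pair overlapped, as both genes were lower by a similar share.

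PC (ENSG00000173599, chromosome 11, 66848417 to 66958386, minus strand) encodes the biotin enzyme that fills up the citric acid cycle with oxaloacetate. Its level was 34.4, 33.3 and 34.9 CPM in siControl and 34.1, 35.5 and 33.3 CPM in siALDOA. The ranges nearly coincided, and the log2 fold change was 0.00 (SE 0.073, 95% interval -0.15 to 0.16, adjusted p = 0.984). The ratio of PC to PDHA1 counts was 0.357, 0.314 and 0.354 in siControl and 0.410, 0.444 and 0.436 in siALDOA. It was higher in each siALDOA library than in any siControl library, and of its terms only PDHA1 was called.

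**Figure D2:**
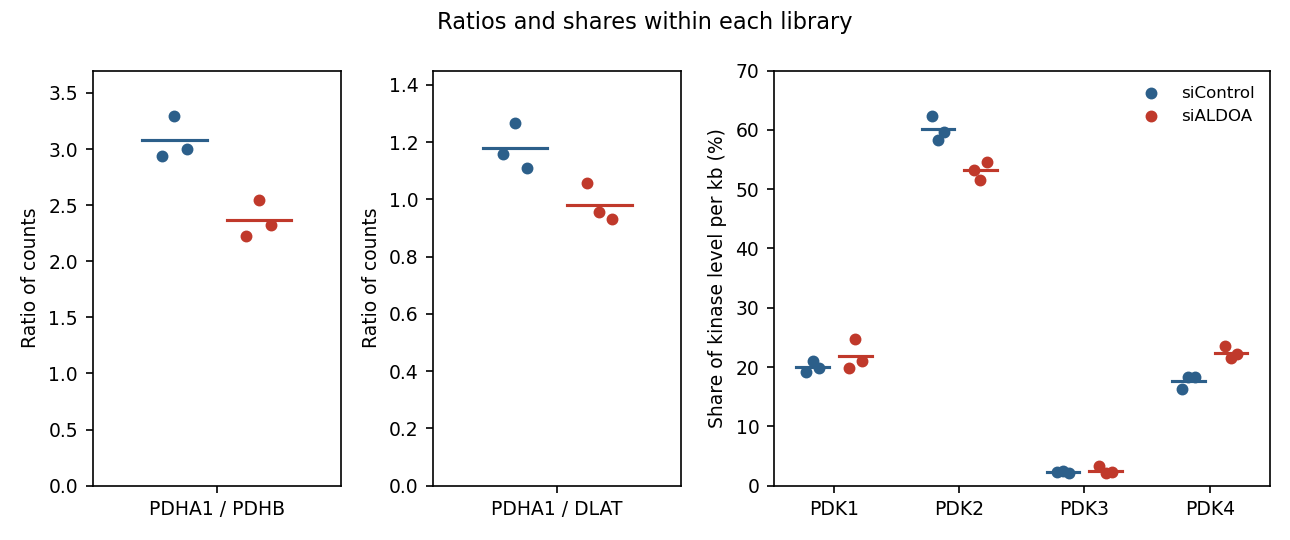
Ratio of PDHA1 to PDHB counts, ratio of PDHA1 to DLAT counts, and share of each PDK gene in the summed kinase level per kb (%), per library, for siControl (blue) and siALDOA (red) with a bar at each group mean. PDHA1 against PDHB lies at 2.94 to 3.30 in siControl and 2.23 to 2.55 in siALDOA, and the PDK2 share at 58.4% to 62.3% and 51.6% to 54.6%.

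As a set, 3 genes had a positive and 7 a negative log2 fold change, with a median of -0.06 beside 0.00 over all tested genes. PDHA1 and PDK2 were also the only genes of the 10 whose CPM groups did not overlap, a state that 14.6% of all tested genes reached in the lower and 13.1% in the higher direction. At an unadjusted p < 0.05 there were 2 lower and 0 higher genes in the set, where 12.3% of all tested genes were lower and 11.3% higher. The 10 genes, PDHA1 and PDK2 included, summed to 379 to 386 CPM in siControl and 339 to 352 CPM in siALDOA. With CPM by library totals the sums were 362 to 394 and 346 to 369, which overlap.

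**Figure D3:**
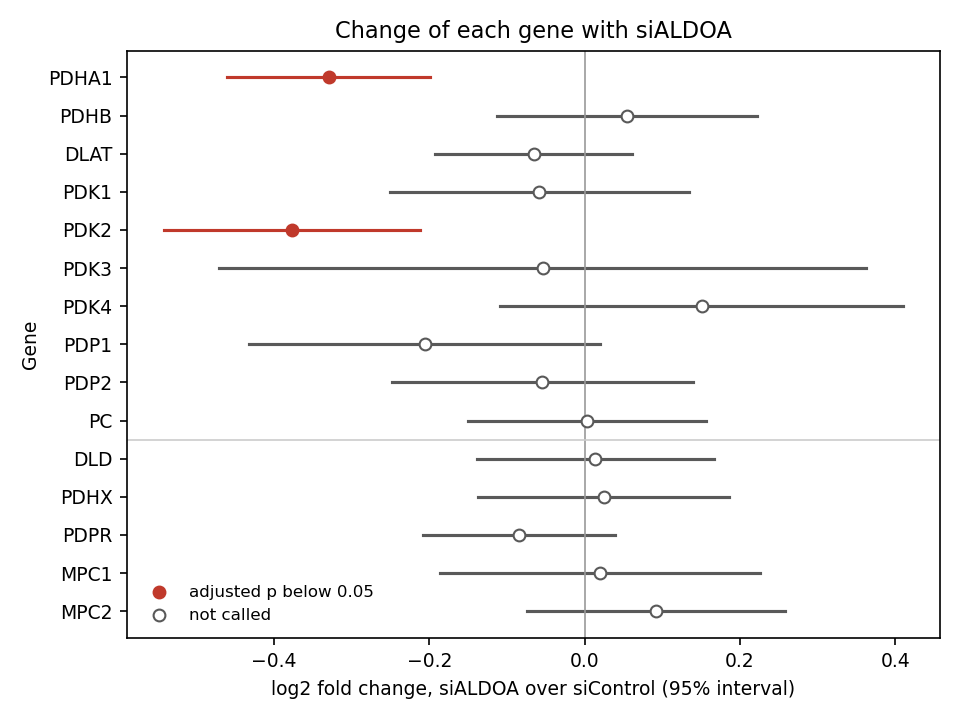
Log2 fold change of siALDOA over siControl with its 95% interval from edgeR for the 10 genes and, under the line, for 5 further genes of the complex and of pyruvate import. Filled red points mark an adjusted p < 0.05, reached by PDHA1 at -0.33 and PDK2 at -0.38, and the intervals of the other genes include 0.

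Levels between genes were compared as CPM per kb of union exon, with 3 libraries per group. In siControl the order ran from PDHA1 (20.3 ± 1.04) over DLAT (11.3 ± 0.432), PDHB (6.91 ± 0.0802), PDK2 (6.38 ± 0.417), PC (4.69 ± 0.112), PDP2 (3.79 ± 0.568), PDP1 (3.49 ± 0.487), PDK1 (2.12 ± 0.0301) and PDK4 (1.87 ± 0.0891) to PDK3 (0.244 ± 0.00985), each as mean ± SD. The ranges of neighbours in that order did not overlap except for PDP2 and PDP1. With siALDOA, PDHA1 was at 16.1 ± 0.661 and still the highest, and PDK2 at 4.92 ± 0.109 CPM per kb overlapped in range with PC at 4.70 ± 0.149. PDK1 (2.03 ± 0.303) and PDK4 (2.07 ± 0.135) overlapped as well. The order depends on the length used: per kb of the longest transcript, PDK2 (10.4) stood above PDHB (7.31) in siControl, PDP1 (4.49) above PDP2 (4.45), and PDK4 (2.36) above PDK1 (2.23).

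Both genes that passed the test overlap a gene on the opposite strand at their 3′ end. PDHA1 shares 953 bases of exon with MAP3K15 and PDK2 shares 2113 bases of exon with SAMD14 in the MANE Select transcripts, and the 3rd GAGGAGA site of PDHA1 and the site of PDK2 shown above lie in these stretches. The strand setting of the counting is not given in the sources used here. Reads that fall in the shared stretch therefore cannot be assigned to 1 gene of a pair. The exons of all transcripts together cover 4953 bases for PDHA1 and 5471 for PDK2, and the longest transcripts hold 3463 and 3364 bases. The 2113 shared bases thus weigh more against the longest PDK2 transcript than against all its exons. How many reads of either gene fall in the shared stretch was not tested. MAP3K15, a kinase of the stress-activated MAP kinase pathways, had 375, 409 and 386 counts in siControl and 223, 260 and 284 in siALDOA, a log2 fold change of -0.48 (SE 0.12, adjusted p = 0.0153) that missed the threshold with library totals only and without siALDOA replicate 1, siALDOA replicate 2 or siControl replicate 2. SAMD14 had 723, 616 and 773 counts in siControl and 561, 656 and 582 in siALDOA, a log2 fold change of -0.10 (SE 0.092, adjusted p = 0.578). With the counts of each pair added together, PDHA1 and MAP3K15 differed by -0.35 (SE 0.061, adjusted p = 0.000767) and PDK2 and SAMD14 by -0.26 (SE 0.069, adjusted p = 0.0184). These sums may hold reads of the shared stretch more than once. PIGY and PYURF, a pair with the same RefSeq start and end, had nearly equal counts in every library, such as 1609 and 1604 in siALDOA replicate 1. Whether the counting gives a read to both genes of an opposite-strand pair such as PDHA1 and MAP3K15 was not tested. DLAT and PC also lie across an opposite-strand gene, PIH1D2 and LRFN4, but share no exon with it in the MANE Select transcripts.

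The calls of PDHA1 and PDK2 did not depend on the settings tried. PDHA1 ranged from -0.36 to -0.26 and PDK2 from -0.42 to -0.26 on the log2 scale over 18 other settings each, and both stayed past the threshold in 18 of 18. The largest adjusted p was 0.0475 for PDHA1 and 0.0450 for PDK2, both with library totals only, a scaling that moved the median of all genes to 0.08. That scaling called 896 genes higher and 279 lower, beside 668 higher and 810 lower with TMM. Library totals without ribosomal RNA genes gave -0.32 (adjusted p = 0.0017) for PDHA1 and -0.37 (adjusted p = 0.0046) for PDK2. With each library left out in turn the adjusted p was at most 0.0196 for PDHA1 and 0.0220 for PDK2. No other gene of the 10 was called under any of its 17 other settings.

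**Figure D4:**
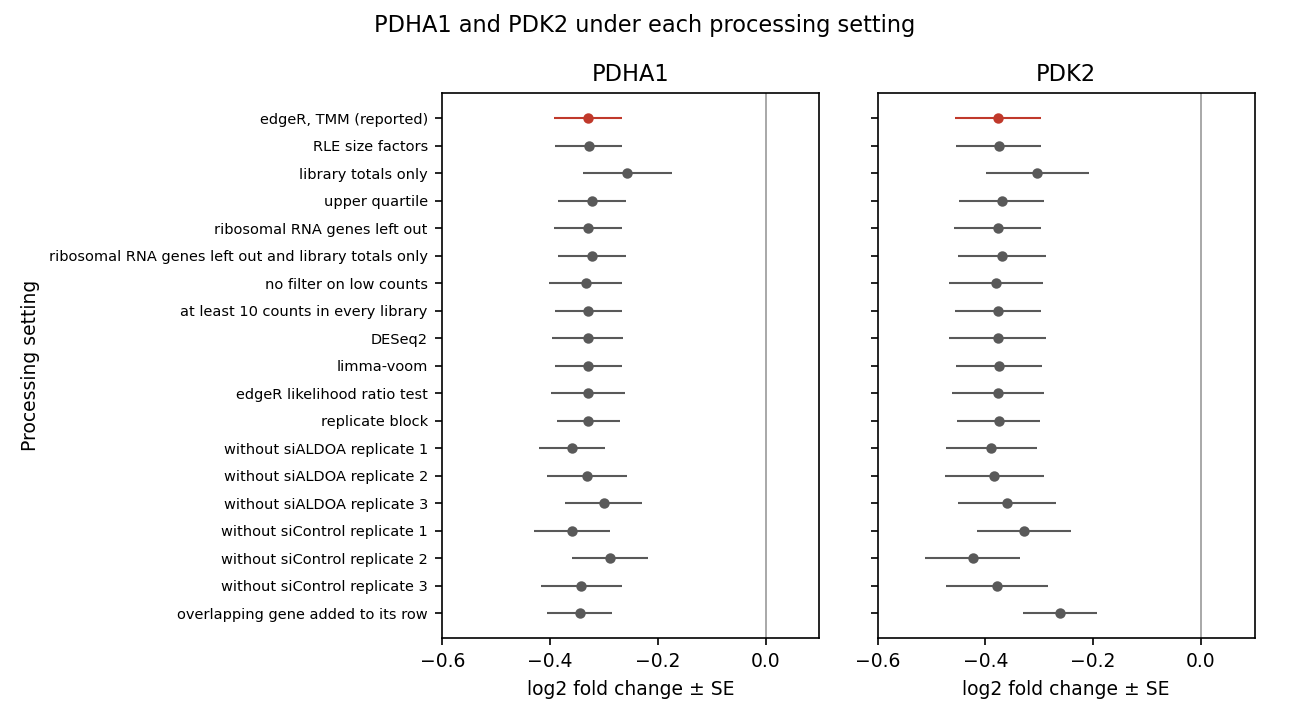
Log2 fold change ± SE of PDHA1 and PDK2 under the reported fit (red) and 18 other processing settings (grey). PDHA1 stays between -0.36 and -0.26 and PDK2 between -0.42 and -0.26, nearest to 0 with library totals only for PDHA1 and with the overlapping gene added for PDK2.

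The genes whose log2 CPM ran most like PDHA1 over the 6 libraries, among 13723 genes of at least 1 CPM, were TARS1 (Pearson r = 0.9998), SNX15 (r = 0.998) and PGAM1 (r = 0.997). For PDK2 they were MDN1 (r = 0.999), OSBPL10 (r = 0.997) and SFXN5 (r = 0.995). These are the best of many genes over 6 points that share depth and group, and are given as a description.

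The rest of the PDH machinery did not pass the test. Of 11 genes in the list of other parts of the complex, its lipoate and thiamine supply and the mitochondrial pyruvate carrier, 10 were tested and none was called at an adjusted p < 0.05, with a median of 0.06. At an unadjusted p < 0.05 the list had 1 higher and 1 lower gene of 10, near the shares of 11.3% and 12.3% over all tested genes, and the testis form PDHA2 had no counts. DLD, the E3 subunit that reoxidises lipoate, differed by 0.01 (SE 0.073, adjusted p = 0.938) and PDHX, which tethers E3 to the core, by 0.02 (SE 0.077, adjusted p = 0.885). The carrier genes MPC1 and MPC2, which bring pyruvate into the matrix, differed by 0.02 (SE 0.099, adjusted p = 0.932) and 0.09 (SE 0.080, adjusted p = 0.532). PDPR, the regulatory subunit of the PDH phosphatase, differed by -0.08 (SE 0.059, adjusted p = 0.428), and it is uncertain because reads may be split with a near-identical pseudogene copy.

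Around pyruvate and oxaloacetate, 16 of 17 further genes were tested, and 1 was lower and none higher, with a median of -0.02. At an unadjusted p < 0.05, 2 of the 16 were higher and 3 lower. Over all tested genes the shares were 4.36% higher and 5.29% lower at the adjusted threshold and 11.3% and 12.3% at the unadjusted one. The called gene was SLC16A3, the lactate exporter MCT4, at 109 CPM with siALDOA and 129 CPM with siControl (log2 fold change -0.25, SE 0.077, adjusted p = 0.0418). It lost the call in 7 of 17 settings, which were library totals only (adjusted p = 0.260), upper-quartile scaling and the fits without siALDOA replicate 1, siALDOA replicate 3 or any 1 of the siControl libraries. PCK2, mitochondrial phosphoenolpyruvate carboxykinase, is listed at 0 in every library, with the same limit as LGALS4. Among 8 genes of biotin ligase and the other biotin-handling enzymes none was called, with a median of 0.01 and 1 gene in each direction at an unadjusted p < 0.05, to be read against the same shares.

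The sister complexes, which use the same E3 on 2-oxoglutarate and branched-chain keto acids, gave 2 higher and 0 lower genes of 8 tested, with a median of 0.01, beside 4.36% higher and 5.29% lower over all tested genes. At an unadjusted p < 0.05, 2 of the 8 were higher and 1 lower. PPM1K encodes the phosphatase that switches the branched-chain complex on, the counterpart of PDP1 and PDP2. It had 575, 528 and 541 counts in siControl and 880, 870 and 962 in siALDOA, or 17.4 ± 1.01 and 31.5 ± 2.46 CPM (SD, n = 3 each). The groups were far apart, with a log2 fold change of 0.86 (SE 0.090, adjusted p = 1.32e-06), whereas PDP1 and PDP2 were not called. BCKDHB, the E1 beta subunit of the branched-chain complex, was higher by 0.21 (SE 0.064, adjusted p = 0.0493) and lost the call in 9 of 17 settings, among them all 6 that left out 1 library (adjusted p up to 0.154).

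Of 12 regulators known to act on PDK genes, 11 were tested, and 0 were higher and 2 lower, with a median of -0.08, beside 4.36% higher and 5.29% lower over all tested genes. At an unadjusted p < 0.05 the list had 3 higher and 5 lower genes, beside 11.3% and 12.3% over all tested genes. EPAS1, the hypoxia factor HIF-2 alpha, was at 37.9 CPM with siALDOA and 65.6 CPM with siControl (log2 fold change -0.79, SE 0.073, adjusted p = 1.87e-07). RXRA, the partner of the PPAR receptors, was at 168 and 228 CPM (log2 fold change -0.44, SE 0.059, adjusted p = 3.65e-05). PDK1 and PDK4, the kinase genes best known as targets of hypoxia factors and PPARs, were not called. Of 14 other PPAR target genes 13 were tested and none was called, with a median of 0.08 and, at an unadjusted p < 0.05, 1 gene in each direction, beside the shares over all tested genes given above. Whether either factor bears on the PDK genes here was not tested.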

How the data were processed

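RNA-Seq libraries of HT29 cells (3 siALDOA, 3 siControl, named as biological replicates in the labels) were analysed. Per the study, the authors used TopHat2 for alignment (hg38) and gfold for counting, and the deposited files hold raw counts per gene symbol, without normalization. The gene annotation, strand setting and treatment of multi-mapped reads are not given in the sources used here.

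Counts were tested in R 4.3.3 with edgeR 4.0.16 on all 6 libraries without a covariate (filterByExpr, TMM, quasi-likelihood F-test). P-values were adjusted by Benjamini-Hochberg over all 15307 tested genes, with calls at an adjusted p < 0.05. SE is the log2 fold change over the square root of F. The fit was tested on simulated data. Log2 CPM used a prior count of 2. Intervals of 95% are from the fit. Alternatives were other scalings, other filters, DESeq2 1.42.0, limma 3.58.1, a replicate block and leaving out each library. The sum with the overlapping gene was added after seeing the data. The unadjusted p < 0.01 used in the study was a further alternative. Positions and lengths are from GENCODE on hg38, and promoters from RefSeq.

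The members and gene lists were chosen with earlier results of these data known. Named are all 10 members, ALDOA, DLD, PDHX, PDPR, MPC1, MPC2, list genes called at an adjusted p < 0.05 (at most 5 a list), the 3 genes most alike each called member, and genes overlapping a member. Beyond that rule, KRT8, the genes without counts PDHA2, LGALS4 and PCK2, and genes near PPM1K are named.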

Additional observations from a re-analysis of the deposited data

How the results depend on the processing

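PDHA1 and PDK2 kept their direction and their call under all settings tried, and the number of called genes in the set stayed at 2 lower and 0 higher. Directions turned only for genes that were not called. With library totals only, DLAT moved to 0.0068, PDK1 to 0.016, PDK3 to 0.015 and PDP2 to 0.022, and without a filter on low counts PC moved to -0.00093. Leaving out each library in turn gave ranges of -0.021 to 0.11 for PDHB, -0.19 to 0.0053 for PDK1, -0.30 to 0.061 for PDK3, -0.12 to 0.075 for PDP2, -0.023 to 0.022 for PC, -0.078 to 0.061 for DLD, -0.035 to 0.084 for PDHX and -0.030 to 0.052 for MPC1. Over all genes, leaving out 1 library gave 359 to 644 calls higher and 471 to 790 lower. The lowest counts came without siControl replicate 2 (359 higher, 490 lower) and siControl replicate 3 (363 and 471), where 5 libraries were fitted. Library totals only gave 279 lower, and 735 higher and 760 lower once ribosomal RNA genes were left out. In that setting DLAT, PDK1, PDK3 and PDP2 were again negative, at -0.058, -0.051, -0.046 and -0.048. The kinase to phosphatase ratio with plain counts was 1.51 in siALDOA and 1.58 in siControl. With PDK1, PDK3 and PDP1 only, the difference turned, at 0.757 in siALDOA and 0.685 in siControl. The groups overlapped in each version of the ratio. In each of these cases the cause was not tested.

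Like-numbered libraries had correlations of deviations of 0.035, 0.027 and 0.026 for numbers 1 to 3, each the best match of its siALDOA library. These values are small, and whether the replicate numbers pair the libraries cannot be told from them. With the replicate block, PDHA1 differed by -0.33 (adjusted p = 0.000144) and PDK2 by -0.37 (adjusted p = 0.000841). The block called 987 genes higher and 1175 lower, beside 668 and 810 without it. PDK3 had the lowest counts of the set, at 97 to 151 per library.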

Other observations

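PPM1K, the phosphatase gene of the branched-chain complex that rose with siALDOA, lies on chromosome 4 between ABCG2 and the HERC genes, and its neighbours were looked up after its value was seen. HERC6, a gene of the HERC family known from the interferon response, was at 46.9 ± 0.622 CPM in siControl and 90.3 ± 13.2 CPM in siALDOA (SD, n = 3 each), a log2 fold change of 0.94 (SE 0.084, adjusted p = 1.09e-07). HERC5, the ligase for the interferon-induced modifier ISG15, had 48 to 103 counts in siControl and 82 to 172 in siALDOA, a log2 fold change of 0.89 (SE 0.27, adjusted p = 0.0435), and lost the call in 5 of 17 settings. ABCG2, a drug efflux pump on the other side of PPM1K, was lower by a log2 fold change of -0.29 (SE 0.072, adjusted p = 0.0128), and lost the call in 4 of 17 settings. Of the other genes looked up there, PIGY and PYURF each differed by 0.09 (adjusted p = 0.441 and 0.454) and HERC3 by -0.18 (adjusted p = 0.379), none of them called, and PKD2, which encodes polycystin-2, was higher by 0.43 (SE 0.091, adjusted p = 0.00421). Over the 17 settings PPM1K stayed called, between 0.80 and 0.93. Whether these genes share their control was not tested.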
